A study of Homo sapiens with 156 samples.

Results

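Among the long noncoding RNAs (lncRNAs) that 3 human acute myeloid leukemia (AML) cell lines kept silent, 51 genes reached an appreciable level after treatment with GSK032, an inhibitor of the DNA methyltransferase DNMT1. The members are the genes of GENCODE type lincRNA or antisense whose mean over the 8 solvent (DMSO) libraries was under 0.3 FPKM (fragments per kilobase of transcript and per 1000000 fragments) in each line, and whose mean with 10000 nM GSK032 on day 4 was 1 FPKM or more in at least 2 of the 3 lines. Of 12571 lncRNA genes matched to the annotation, 9187 were silent by this measure, and the 51 members are 0.555% of those. They comprise 37 lincRNAs and 14 antisense RNAs on 19 chromosomes, 3 of them on X. The members were chosen by their levels in the DMSO libraries and in the day 4 libraries of 10000 nM GSK032, so these levels are given as a description without a test.

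RNA was sequenced from the cell lines MV411, THP1 and NOMO1, established AML lines of monocytic type, in 26 groups of 2 libraries per line and 156 libraries in all. The time course of GSK032 (GSK3685032 in the labels) and of decitabine (DAC) used 400 nM, with cells taken after 1, 2, 4 or 6 days, and the day 4 dose series of both compounds used 3.2, 16, 80, 400, 2000 and 10000 nM. Single doses were tested of GSK862 (GSK3484862; 1000 nM) and of GSK477 (GSK3510477; 10000 nM), each after 2 or 4 days, whereas DMSO controls cover every day of the time course. No line carries an engineered change according to the labels, and each line derives from a single patient's leukemia.

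DNMT1 copies methylation of cytosines in CpG pairs onto newly made DNA at each cell division, so that its loss of function dilutes the marks as cells divide. DAC is a nucleoside built into DNA in the place of cytosine, where DNMT1 becomes bound to it. Long noncoding RNAs are transcripts without a long protein-coding frame, many of them are made in few tissues, and silent ones often have methylated start regions or start within retroviral repeats.

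The sum of all FPKM values of a library, in units of 1000000 FPKM, ran from 1.33 to 3.07 in MV411, from 1.26 to 2.33 in THP1 and from 1.31 to 2.05 in NOMO1, so the libraries had not been scaled to equal sums. Of 11 markers of monocytic AML cells, 10 in MV411, 10 in THP1 and 11 in NOMO1 had a median of at least 1 FPKM in DMSO. Below it were CD14 in MV411 (0.274 FPKM) and MEIS1 in THP1 (0.114 FPKM). At that cutoff 3, 2 and 4 of 5 epithelial and 0, 2 and 2 of 5 B cell markers also passed in MV411, THP1 and NOMO1. So did 0, 0 and 1 of 5 T cell, 0, 0 and 1 of 5 fibroblast, 1 of 5 erythroid and megakaryocyte and 1 of 4 endothelial markers, the last 2 in each line. The members' summed level in THP1 DMSO libraries was 9.06 and 9.18 FPKM on day 4 but 3.63 to 4.87 FPKM on days 1, 2 and 6, and the sums of all FPKM in the same day 4 libraries were 1.52 and 1.46 of those units against 1.72 to 2.20 on the other days. In MV411 DMSO the members summed to 4.84 and 6.18 FPKM on day 4 and to 2.40 to 4.17 FPKM on the other days, and in NOMO1 to 2.35 to 3.80 FPKM on all days. Day 4 libraries of THP1 and of MV411 therefore stand apart even without a drug, and comparisons between days carry this offset.

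Start regions are shown for 5 members that span the range of CpG content, since CpG pairs are the sites that DNMT1 methylates. Of the 51 members, 19 had an entry among the RefSeq promoters (GRCh38.p14, 250 bases before to 50 bases after the start), and in 14 the RefSeq start lay within 500 bases of the GENCODE 29 start. Capitals mark CG pairs, sequences run 5′ to 3′ on the strand of the gene, and the windows were BOK-AS1 at chr2:241559094-241559393 (minus strand), PROSER2-AS1 at chr10:11894661-11894960 (minus strand), LINC02583 at chr2:46428940-46429239 (plus strand), LINC02205 at chr15:70505879-70506178 (minus strand) and LINC01687 at chr21:22098410-22098709 (minus strand).
BOK-AS1: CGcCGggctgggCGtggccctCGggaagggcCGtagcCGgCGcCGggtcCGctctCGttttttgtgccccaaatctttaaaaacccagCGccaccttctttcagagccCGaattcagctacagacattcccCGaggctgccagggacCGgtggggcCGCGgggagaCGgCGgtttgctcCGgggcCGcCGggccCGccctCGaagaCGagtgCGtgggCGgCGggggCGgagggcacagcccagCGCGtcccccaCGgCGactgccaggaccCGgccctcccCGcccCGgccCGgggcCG
PROSER2-AS1: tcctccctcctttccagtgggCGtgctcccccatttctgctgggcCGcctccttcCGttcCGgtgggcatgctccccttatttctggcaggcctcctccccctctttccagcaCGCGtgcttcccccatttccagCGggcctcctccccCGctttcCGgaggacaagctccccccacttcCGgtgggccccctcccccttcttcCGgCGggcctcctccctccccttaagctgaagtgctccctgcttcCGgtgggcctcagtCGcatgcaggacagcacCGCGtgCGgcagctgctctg
LINC02583: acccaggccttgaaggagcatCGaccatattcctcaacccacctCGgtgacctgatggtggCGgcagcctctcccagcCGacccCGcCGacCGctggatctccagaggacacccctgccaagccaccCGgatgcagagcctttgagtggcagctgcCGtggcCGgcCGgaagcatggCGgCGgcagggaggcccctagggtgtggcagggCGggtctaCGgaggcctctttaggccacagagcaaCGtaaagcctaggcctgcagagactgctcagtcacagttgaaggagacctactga
LINC02205: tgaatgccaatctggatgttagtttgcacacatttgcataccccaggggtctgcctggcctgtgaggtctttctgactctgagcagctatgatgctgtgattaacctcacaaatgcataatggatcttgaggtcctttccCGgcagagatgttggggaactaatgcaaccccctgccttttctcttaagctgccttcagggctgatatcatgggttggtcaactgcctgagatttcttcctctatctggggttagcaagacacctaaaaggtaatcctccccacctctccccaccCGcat
LINC01687: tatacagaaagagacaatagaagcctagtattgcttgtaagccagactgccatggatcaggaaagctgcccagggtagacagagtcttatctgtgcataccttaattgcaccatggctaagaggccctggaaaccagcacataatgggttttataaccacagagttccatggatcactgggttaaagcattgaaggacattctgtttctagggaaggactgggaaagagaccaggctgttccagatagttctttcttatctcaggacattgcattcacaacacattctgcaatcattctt

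BOK-AS1 held 37 CG pairs in its 300 bases, PROSER2-AS1 17, LINC02583 16, LINC02205 2 and LINC01687 none. The richest window of the 14 was that of AC012629.2 (now DAP-DT) with 43 CG pairs. The observed number of CG pairs over that expected from the base composition had a median of 0.348 in the 14 members, 0.279 in 1764 other silent lncRNAs with a promoter matched the same way, and 0.848 in 272 lncRNAs at 1 FPKM or more in DMSO of every line. A ratio of at least 0.6, a usual mark of CpG islands, was found in 2 of the 14 members (14.3%), in 23.4% of the other silent lncRNAs and in 81.6% of the expressed ones. Over the first 300 bases of the RNA, which 49 members have, the median was 8 CG pairs (range 1 to 34) against 4 in 8692 other silent lncRNAs and 14 in 633 expressed lncRNAs. The start regions of the members thus ranged from CpG-free to CpG-dense, and both medians lay between those of other silent and of expressed lncRNAs.

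Searched on both strands of the 14 windows, TATAAA was found in 3 (11.5% of all 35116 RefSeq promoters), CCAAT in 3 (34.6%) and the ETS motif ACTTCCGG in 1, PROSER2-AS1 (4.14%). CACGTG (7.26%) and TGACGTCA (1.85%) were in none of the 14. The motifs do not overlap each other in these letters.

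The first 150 bases of the RNA are shown for 3 members without a matched promoter: ST8SIA6-AS1, which was called in all 3 lines in several comparisons, and AC005208.1 and AL365226.2, whose RNAs begin with related sequence. They are GENCODE 29 transcripts in DNA letters, with CG pairs in capitals, from genes at chr10:17386936-17413503 (plus strand), chr17:70017324-70128859 (minus) and chr6:70394887-70399417 (plus).
ST8SIA6-AS1: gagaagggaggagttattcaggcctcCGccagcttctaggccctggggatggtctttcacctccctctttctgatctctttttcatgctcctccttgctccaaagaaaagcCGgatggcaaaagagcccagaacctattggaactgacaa
AC005208.1: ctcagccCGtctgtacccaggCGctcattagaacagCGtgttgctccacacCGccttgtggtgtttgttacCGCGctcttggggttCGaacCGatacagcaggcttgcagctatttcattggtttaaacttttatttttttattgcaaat
AL365226.2: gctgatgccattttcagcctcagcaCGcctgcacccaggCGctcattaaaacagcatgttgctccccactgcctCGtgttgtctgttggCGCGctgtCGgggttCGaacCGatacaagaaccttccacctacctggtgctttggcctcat

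AC005208.1 on chromosome 17 and AL365226.2 on chromosome 6 matched over 98 bases with 85.7% identity, from base 1 and base 19, and AC092112.1 and LINC02506 over 114 bases with 73.7% identity. In all, the first 300 bases of 6 of 51 members (11.8%) matched another member over at least 80 bases, and 537 of 8692 other silent lncRNAs (6.18%) matched a member. Most members are short spliced RNAs: the longest annotated transcript had a median of 725 bases (range 197 to 4390), and 47 of 51 have a transcript with at least 2 exons. Near-identical sequence in another gene, over at least 50% of a transcript at 95% identity or more, was found for SNHG27 (AL590399.3), AC134312.1 (AC009093.10) and TMEM212-AS1 (its overlapping partner TMEM212), so the levels of these 3 are uncertain.

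At the dose that chose them, 47 members reached 1 FPKM in MV411, 41 in THP1 and 32 in NOMO1, and 18 did so in all 3 lines. Their median in MV411 was 2.91 FPKM, and 0.0442 FPKM in DMSO. For THP1 the medians were 1.59 and 0.0794 FPKM, for NOMO1 1.25 and 0.0372 FPKM. In 28 members every one of the 24 DMSO libraries was below 0.3 FPKM, and the highest single DMSO value of any member was 1.28 FPKM. The same thresholds were met by 116 of 5569 protein-coding genes silent in DMSO (2.08%). In bulk RNA a moderate level in all cells and a high level in few cells cannot be told apart.

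**Figure D1:**
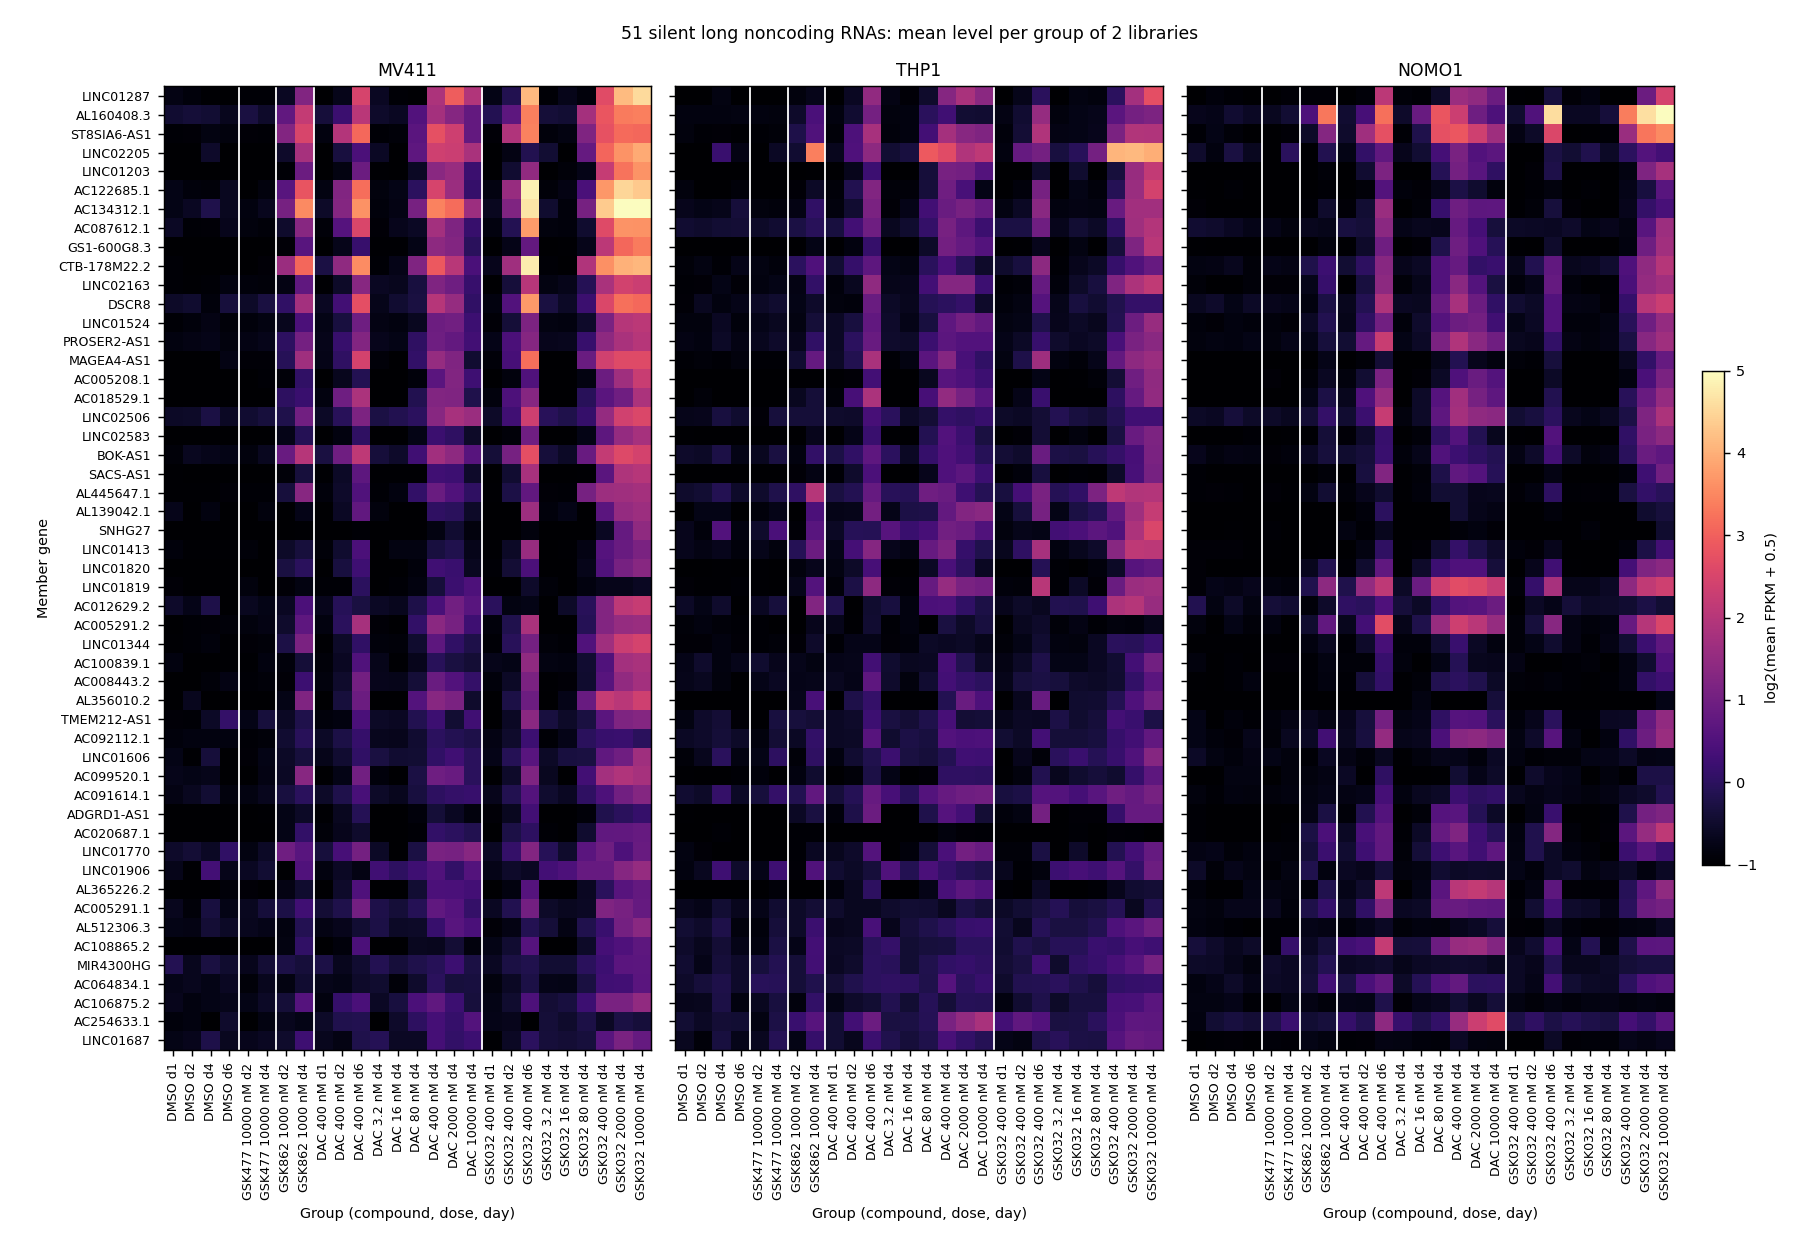
Mean level of each of the 51 members in each group of 2 libraries, as log2(mean FPKM + 0.5), with lines in panels, groups in columns and members in rows ordered by their mean over lines at 10000 nM GSK032. DMSO, GSK477 and the lowest doses are dark throughout, whereas 47 members in MV411, 41 in THP1 and 32 in NOMO1 are at 1 FPKM or more in the last column, the group that chose them.

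The levels differed widely between members and between lines. AC134312.1, a lincRNA on chromosome 16, had the highest level with 36.3 and 37.5 FPKM in MV411, but 2.96 and 2.60 FPKM in THP1 and 0.997 and 0.631 FPKM in NOMO1. Its levels are uncertain because of the near-identical sequence in AC009093.10. AL160408.3, a lincRNA on chromosome 1, was highest in NOMO1 with 31.9 and 31.5 FPKM, followed by MV411 with 9.23 and 10.8 and THP1 with 1.84 and 1.69 FPKM. The values of different lines did not overlap for either gene. Both genes were picked as the highest of a line among values that chose the members, so this is a description.

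LINC02205, a short lincRNA on chromosome 15, reached 12.6 and 17.1 FPKM in MV411 and 17.0 and 13.3 FPKM in THP1 but 1.04 and 0.467 FPKM in NOMO1. AC020687.1 showed the opposite gap, with 4.16 and 3.65 FPKM in NOMO1, 1.12 and 1.48 FPKM in MV411 and 0 in both THP1 libraries. LINC01819 was at 4.65 and 4.61 FPKM in NOMO1 and 2.33 and 3.05 FPKM in THP1, and at 0.188 and 0.115 FPKM in MV411. In all, 18 members reached 1 FPKM in all 3 lines and 33 in 2.

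The 10 members with the highest values of the smallest level over the lines at 1 FPKM or more were LINC02205, LINC01287, DSCR8, ST8SIA6-AS1, LINC02506, LINC01203, AL445647.1, LINC02163, GS1-600G8.3 and AC134312.1. This level was 14.8 FPKM for LINC02205, 4.98 FPKM for LINC01287, 4.41 FPKM for DSCR8 and 3.30 FPKM for ST8SIA6-AS1, and 2.78 to 3.15 FPKM for the other 6. DSCR8 lies in the Down syndrome critical region of chromosome 21, and LINC02163 (now NIHCOLE) has been described in liver cancer as an RNA that aids the joining of DNA double-strand breaks. Just inside the threshold, the second highest line mean was 1.03 FPKM for AC064834.1, 1.03 FPKM for AC254633.1 and 1.07 FPKM for AC106875.2. Just outside it lay RARA-AS1 at 0.939 FPKM, AC063976.1 at 0.915 FPKM and OVAAL at 0.898 FPKM. On the DMSO side the members nearest the limit were SNHG27 at 0.298, AC091614.1 at 0.297 and LINC01770 at 0.294 FPKM in their highest line, and AC084706.1 at 0.305 FPKM was the nearest gene outside.

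With rising GSK032 on day 4 members reached 1 FPKM at the lowest doses in MV411, followed by THP1 and then NOMO1. The number at a mean of 1 FPKM or more over the doses 3.2, 16, 80, 400, 2000 and 10000 nM was 0, 0, 11, 38, 44 and 47 in MV411, then 0, 0, 4, 13, 29 and 41 in THP1, and 0, 0, 0, 5, 26 and 32 in NOMO1. Of members that reached 1 FPKM, 36 of 47 in MV411, 33 of 41 in THP1 and 31 of 33 in NOMO1 were highest at 10000 nM, which the choice of members favours. The comparison of 400 nM with 3.2 nM used no library of the rule and was tested with limma across all genes. Members were, however, chosen as low in DMSO and high with 10000 nM of the same compound. This favours a rise with dose, so the counts are partly set by the choice. A gene counts as called with an adjusted p below 0.05 and a log2 fold change of at least 1 in size on the log2(FPKM + 0.5) scale, which understates changes of low genes. On that scale a fall of 1 needs a start of at least 0.5 FPKM.

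Between 3.2 and 400 nM GSK032, 39 of 51 members were called higher in MV411 (48 tested, against 6.26% of all genes tested), 13 in THP1 (43 tested, 1.92%) and 9 in NOMO1 (34 tested, 2.41%). None was called lower in MV411 (2.64% of all genes), THP1 (0.349%) or NOMO1 (0.433%), and none was lower at an unadjusted p below 0.05 (0 in each line by limma). With 3.2 nM the highest member mean was 0.749 FPKM in MV411, 0.979 FPKM in THP1 and 0.452 FPKM in NOMO1. Most members thus stood too low to be called lower, and nothing is read from the absence of such calls. Members entered the test mostly because they were high in some treated group, so the counts are over all 51. With no filter on low values all 51 were tested, and 40, 13 and 9 were called. With a pseudocount of 0.1 in place of 0.5 the counts were 30 in THP1 and 17 in NOMO1, and with a pseudocount of 1 the count in NOMO1 was 5.

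Called in all 3 lines were AL160408.3, CTB-178M22.2, LINC02163 and ST8SIA6-AS1, with LINC02163 in NOMO1 at 1.24 (0.89 without 1 library). ST8SIA6-AS1 lies antisense to the sialyltransferase gene ST8SIA6. It went from 0.00716 and 0.00850 FPKM at 3.2 nM to 2.63 and 2.38 FPKM at 400 nM in NOMO1 (log2 fold change 2.56, standard error 0.17, adjusted p = 1.66e-12). In MV411 it went from 0.0395 and 0.0588 to 7.17 and 5.44 FPKM, and in THP1 from 0.0474 and 0.123 to 1.3 and 2.09 FPKM. No library at 400 nM overlapped one at 3.2 nM in any line, as a description of a member picked for its calls in all 3 lines.

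AL160408.3 rose in NOMO1 from 0.141 and 0.166 to 9.51 and 10.1 FPKM (log2 fold change 3.98, standard error 0.10, adjusted p = 6.22e-22), the largest change of a member in that line. CTB-178M22.2 (now TENM2-AS1) lies within the neuronal adhesion gene TENM2, which was itself silent. It rose in MV411 from 0.0409 and 0 to 12.3 and 11.3 FPKM (log2 fold change 4.56, standard error 0.21, adjusted p = 1.97e-16). Its changes were smaller in THP1 (1.03) and NOMO1 (1.19), where leaving out 1 library lost the call (0.63 and 0.89 at the lowest).

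AC134312.1 had the largest change in MV411, from 0.303 and 0.137 to 19.5 and 20.5 FPKM (log2 fold change 4.84, standard error 0.19, adjusted p = 3.66e-18), followed by AC122685.1, which runs antisense through a cluster of silent olfactory receptor genes (log2 fold change 4.59, standard error 0.19, adjusted p = 1.60e-17). The levels of AC134312.1 are uncertain because of its near copy. In THP1 the largest change was that of LINC02205, from 0.444 and 0.160 to 16.6 and 15.9 FPKM (log2 fold change 4.41, standard error 0.44, adjusted p = 1.27e-08), then AL445647.1 (2.24) and LINC01413 (2.16). In NOMO1, LINC01819 followed with a log2 fold change of 2.11. The lowest adjusted p of a member not called belonged to PROSER2-AS1 in THP1 (log2 fold change 0.90, adjusted p = 8.46e-06) and ADGRD1-AS1 in NOMO1 (0.80, adjusted p = 1.37e-05), both of which missed the fold threshold.

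**Figure D2:**
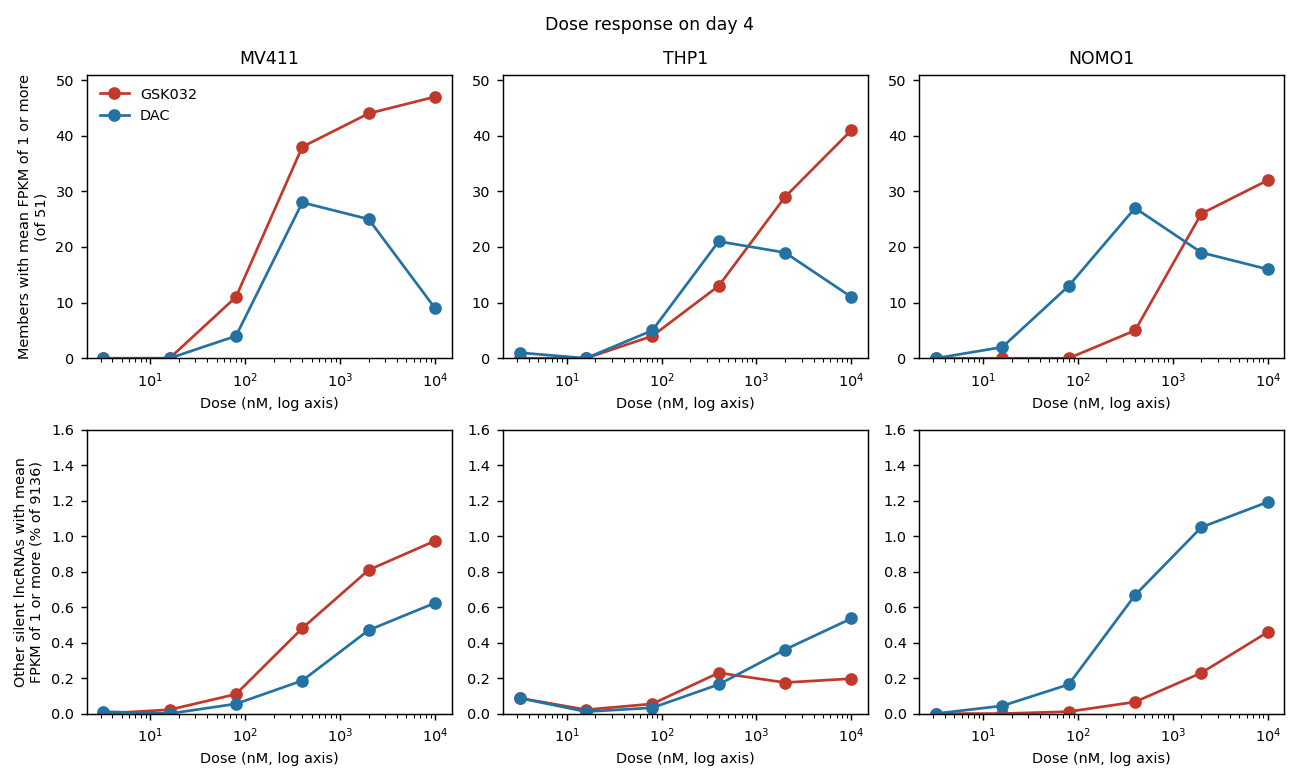
Dose response on day 4 for GSK032 (red) and DAC (blue) in each line, with the dose on a log axis. The upper panels count members at a mean of 1 FPKM or more, of 51, and the lower panels give the percentage of the 9136 other silent lncRNAs at that level: with DAC the members peak at 400 nM (28, 21 and 27 members) and then decline, while the other silent lncRNAs go on rising to 10000 nM.

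From 400 to 2000 nM, a comparison added after seeing the data, GSK032 raised 6 members in MV411 (1.03% of all genes called higher), 10 in THP1 (0.59%) and 17 in NOMO1 (1.74%). No member was called lower (0.277%, 0.056% and 0.111% of all genes), and 0 were lower at an unadjusted p below 0.05. In NOMO1 the median of the members was 0.270 FPKM with 400 nM, too low for a fall of 1. AC087612.1, LINC01203 and LINC01287 were called in all 3 lines, although in MV411 leaving out 1 library lost the calls of AC087612.1 (0.94) and LINC01203 (0.82). LINC01203 rose in NOMO1 from 0.143 and 0 to 1.67 and 1.88 FPKM (log2 fold change 2.00, standard error 0.19, adjusted p = 1.02e-08) and in THP1 from 0.376 and 0.218 to 2.65 and 2.23 FPKM (log2 fold change 1.89, standard error 0.21, adjusted p = 3.88e-07). LINC01287 rose in MV411 from 7.15 and 4.33 to 19.8 and 14.6 FPKM (log2 fold change 1.53, standard error 0.27, adjusted p = 3.93e-04). SNHG27 in MV411, 1 of 7 members whose mean first reached 1 FPKM there at 2000 nM, was at 0.195 and 0.12 FPKM with 400 nM and 1.11 and 1.43 FPKM with 2000 nM. In NOMO1, DSCR8 rose from 0.435 and 0.767 to 3.28 and 3.97 FPKM (log2 fold change 1.92, standard error 0.27, adjusted p = 8.20e-06).

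DAC, whose libraries had no part in choosing the members, raised members in all 3 lines at 400 nM. The number of members at 1 FPKM or more over the 6 doses was 0, 0, 4, 28, 25 and 9 in MV411, then 1, 0, 5, 21, 19 and 11 in THP1, and 0, 2, 13, 27, 19 and 16 in NOMO1. Between 3.2 and 400 nM, 33 members were called higher in MV411 (7.5% of all genes), 27 in THP1 (6.39%) and 32 in NOMO1 (13%). For MV411 (3.36% of all genes called lower), THP1 (2.77%) and NOMO1 (6.51%), 0 members were lower, also at an unadjusted p below 0.05, but most started too low to be called lower. With no filter on low values the counts were 33, 27 and 35 of 51. In MV411, 31 members were called with both compounds (79.5% of those called with GSK032 and 93.9% of those called with DAC), in THP1 11 (84.6% and 40.7%) and in NOMO1 9 (100% and 28.1%). The overlap among all genes was not counted, so nothing particular to the members is read from these shares. In THP1 the count was 16 with a pseudocount of 1.

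With DAC, 20 members were called higher in all 3 lines. ST8SIA6-AS1 had among the largest changes in each line, from 0.0413 and 0 to 6.27 and 6.09 FPKM in MV411 (log2 fold change 3.68, standard error 0.21, adjusted p = 3.36e-14), from 0.0740 and 0.0230 to 3.04 and 2.69 FPKM in THP1 (2.62), and from 0.0277 and 0.0183 to 6.70 and 6.80 FPKM in NOMO1 (3.79). The groups did not overlap in any line, which adds no support for a member picked by its large changes. PROSER2-AS1, antisense to PROSER2, rose in NOMO1 from 0.0980 and 0.0973 to 3.48 and 3.04 FPKM (log2 fold change 2.65, standard error 0.12, adjusted p = 8.21e-17). AC005291.2, which overlaps the silent myosin gene MYH13, rose there from 0 and 0.225 to 4.75 and 4.43 FPKM (log2 fold change 3.08, standard error 0.19, adjusted p = 2.42e-14).

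Counted over lines, 4 members were called between 3.2 and 400 nM GSK032 in 3 lines, 12 in 2 lines, 25 in 1 line and 10 in none. With DAC the numbers were 20, 10, 12 and 9. Such counts were not made for all genes, so whether members agree between lines more than other genes is not known. The 10 without a call for GSK032 were TMEM212-AS1, AL365226.2, AL512306.3, MIR4300HG, SNHG27, AC092112.1, LINC01906, AC064834.1, AC091614.1 and AC254633.1. Of these, AL365226.2 and AC254633.1 were called with DAC in all 3 lines. AC254633.1 in NOMO1 was at 0.469 and 1.07 FPKM with 400 nM GSK032 and 2.35 and 2.57 FPKM with 400 nM DAC, and AL365226.2 was at 0.351 and 0.536 FPKM with GSK032 and 3.47 and 3.90 FPKM with DAC. AC012629.2, which overlaps DAP and starts 207 bases from it, was called with GSK032 in MV411 and THP1 and with DAC in no line. In MV411 it was at 1.12 and 2.64 FPKM with 400 nM GSK032 and 0.604 and 1.00 FPKM with 400 nM DAC.

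Above 400 nM DAC many members declined. With GSK032 the choice of members sets the level at 10000 nM and favours a rise towards it. The same step is therefore not compared for GSK032. Of members that reached 1 FPKM at any DAC dose, 22 of 30 in MV411, 13 of 25 in THP1 and 20 of 29 in NOMO1 were highest at 400 nM, and only 1, 3 and 3 at 10000 nM. From 400 to 10000 nM, 16 members were called lower in MV411 (3.04% of all genes called lower), 5 in THP1 (1.11%) and 10 in NOMO1 (2.17%). AC254633.1 in NOMO1, where leaving out 1 library lost its call (1.001), was the only member called higher (1.08; 3.02% of all genes there, 2.66% in MV411 and 2.85% in THP1). At an unadjusted p below 0.05, 0 members were higher in MV411 and 1 in THP1. Over the same doses the share of other silent lncRNAs at 1 FPKM or more went from 0.186% at 400 nM to 0.624% at 10000 nM in MV411, from 0.164% to 0.536% in THP1 and from 0.668% to 1.19% in NOMO1. That share excludes genes high with GSK032 by the choice of members.

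LINC02163 was called lower in all 3 lines, from 1.88 and 1.77 FPKM at 400 nM to 0.667 and 0.565 FPKM at 10000 nM in MV411 (-1.06; -0.99 without 1 library), from 1.94 and 1.93 to 0.661 and 0.679 FPKM in THP1 (-1.06) and from 1.95 and 2.16 to 0.271 and 0.376 FPKM in NOMO1 (-1.63). The largest falls were those of CTB-178M22.2 in MV411, from 7.27 and 6.32 to 0.678 and 1.00 FPKM (log2 fold change -2.45, standard error 0.21, adjusted p = 5.83e-10), AC122685.1 in THP1, from 1.83 and 1.12 to 0 and 0.194 FPKM (log2 fold change -1.72, standard error 0.18, adjusted p = 1.63e-08), and AL160408.3 in NOMO1, from 4.39 and 4.57 to 0.926 and 0.844 FPKM (log2 fold change -1.85, standard error 0.10, adjusted p = 3.55e-14). The groups did not overlap for these 3, which follows from picking the largest falls and adds no support. The counts fell to 10, 1 and 4 with a pseudocount of 1, were 12 in THP1 with a pseudocount of 0.1, and 3 in THP1 after scaling libraries to equal sums. In MV411 that scaling moved the median of all genes from -0.09 to -0.41. All genes called lower there went from 669 to 2531, in THP1 from 258 to 174 and in NOMO1 from 450 to 466. The share of 3.04% in MV411 thus depends on the scaling.

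**Figure D3:**
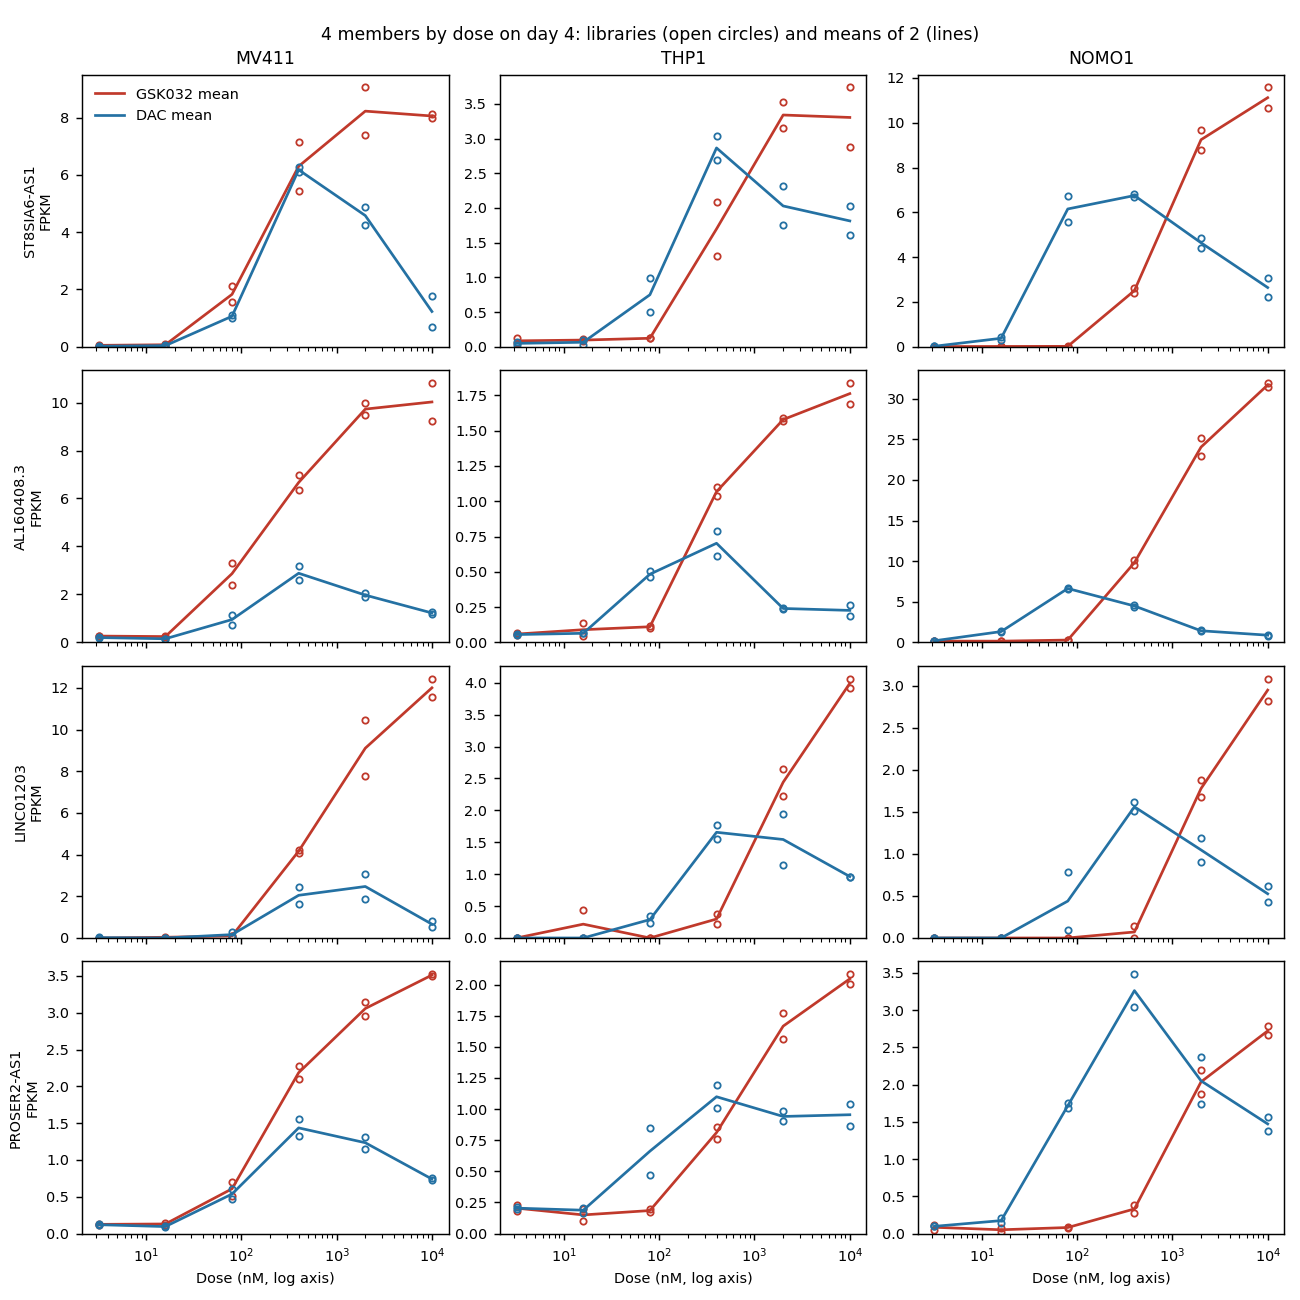
Levels of ST8SIA6-AS1, AL160408.3, LINC01203 and PROSER2-AS1 in FPKM against dose (log axis) on day 4 in each line, with open circles for the libraries and lines for the means of 2. GSK032 (red) rises to 2000 or 10000 nM, for example to 31.7 FPKM for AL160408.3 in NOMO1, whereas DAC (blue) turns down after 80, 400 or 2000 nM. The choice of members favours the rise with GSK032.

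At the matched dose of 400 nM the counts differed from line to line, a difference that was not tested. GSK032 was called higher than DAC for 2 members in MV411 (0.682% of all genes), 3 in THP1 (1.54%) and 1 in NOMO1 (3.5%), and lower for 0 in MV411 (1.23%; 3 lower at an unadjusted p below 0.05), 8 in THP1 (2.99%) and 21 in NOMO1 (9.73%). AL160408.3 was higher with GSK032 in MV411 (6.97 and 6.37 FPKM against 2.60 and 3.17 FPKM with DAC; log2 fold change 1.09, standard error 0.14, adjusted p = 6.38e-06; 0.97 without 1 library) and in NOMO1 (9.51 and 10.1 against 4.39 and 4.57 FPKM; 1.05). LINC01287 in NOMO1 was far lower with GSK032, at 0.00468 and 0 FPKM against 2.54 and 2.60 FPKM (log2 fold change -2.61, standard error 0.12, adjusted p = 2.43e-16), and so was PROSER2-AS1, at 0.383 and 0.280 against 3.48 and 3.04 FPKM (log2 fold change -2.18, standard error 0.12, adjusted p = 1.34e-14). In THP1 the largest differences among the 8 members lower with GSK032 were those of AC018529.1 (-1.61; -0.98 without 1 library), LINC01203 (-1.44) and GS1-600G8.3 (-1.37). The 3 higher with GSK032 there were LINC02205 (1.43), AC012629.2 (1.36) and AL445647.1 (1.22), and leaving out 1 library lost the calls of LINC02205 (1.28) and AC012629.2 (0.96). In MV411, with libraries scaled to equal sums, 14 members in place of 2 were called higher with GSK032, and the median log2 fold change of all genes moved from 0.04 to 0.38. In THP1, 4 in place of 8 were called lower after that scaling, which moved the median of all genes from 0 to 0.26.

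At 2000 nM, a comparison also added after seeing the data, more members were called higher than lower with GSK032 in each line. The choice of members by their level with GSK032 favours this outcome. In NOMO1, 13 were higher and 10 lower by limma at an unadjusted p below 0.05. GSK032 was called higher for 27 members in MV411 (3.81% of all genes), 7 in THP1 (2.73%) and 6 in NOMO1 (4.46%), and lower for 0 (4.33%; 1 lower at an unadjusted p below 0.05), 1 (5.38%) and 3 (9.75%). With libraries scaled to equal sums, the median of all genes in MV411 moved from 0.11 to 0.58. All genes called higher there went from 839 to 3092, in THP1 from 635 to 512 and in NOMO1 from 926 to 775. The share of 3.81% in MV411 thus depends on the scaling. AL160408.3 was called in all 3 lines: 9.48 and 9.98 FPKM with GSK032 against 1.90 and 2.04 FPKM with DAC in MV411, 1.59 and 1.57 against 0.233 and 0.247 FPKM in THP1, and 23.0 and 25.1 against 1.38 and 1.47 FPKM in NOMO1 (log2 fold change 3.67, standard error 0.10, adjusted p = 3.85e-21). AC122685.1 in MV411 was at 23.0 and 20.9 against 3.13 and 1.95 FPKM (log2 fold change 2.91, standard error 0.19, adjusted p = 1.43e-12). The exceptions were AL365226.2, lower with GSK032 in THP1 (-1.12) and NOMO1 (-1.50), and AC254633.1 (-2.20) and AC108865.2 (-1.01; -0.82 without 1 library) in NOMO1. Taking each member's highest mean over the 6 doses as a description, GSK032 gave the higher maximum for 46 of 47 members in MV411, 38 of 42 in THP1 and 25 of 36 in NOMO1, an outcome that the choice of members favours.

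**Figure D4:**
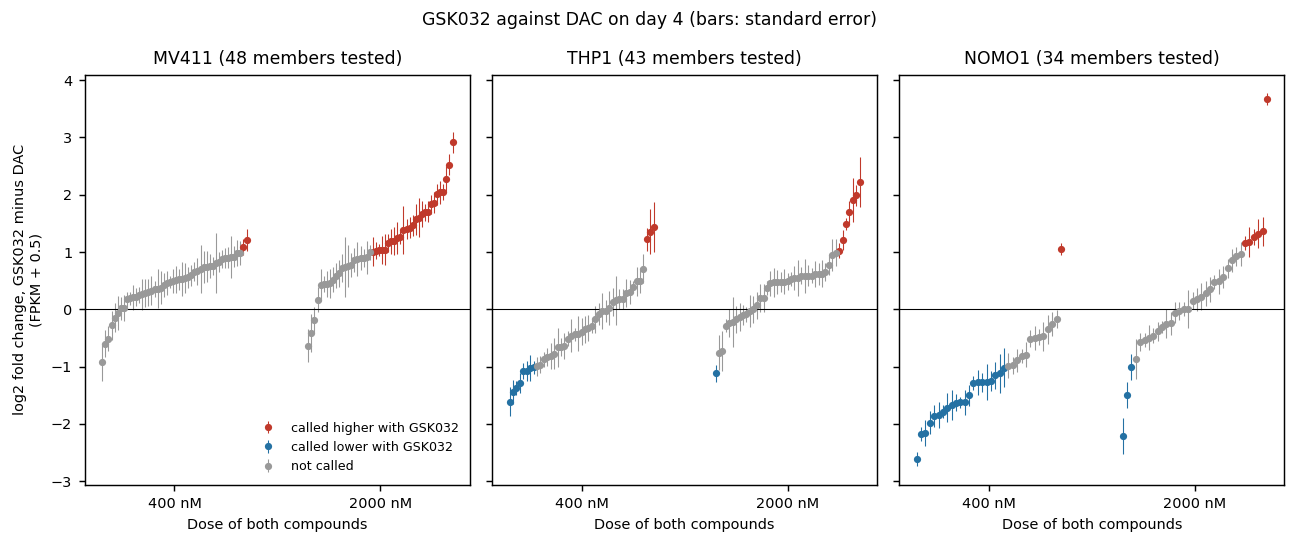
Difference between GSK032 and DAC for each tested member at 400 and 2000 nM on day 4, as log2 fold change of FPKM + 0.5 with its standard error, sorted within each dose. Members called higher with GSK032 are red (2, 3 and 1 at 400 nM, 27, 7 and 6 at 2000 nM) and those called lower are blue (0, 8 and 21, then 0, 1 and 3) in MV411, THP1 and NOMO1. The choice of members favours higher levels with GSK032.

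No member reached a mean of 1 FPKM after 1 day with either compound. With 400 nM GSK032 the number at 1 FPKM on days 2, 4 and 6 was 6, 38 and 33 in MV411, then 2, 13 and 16 in THP1, and 0, 5 and 9 in NOMO1. With 400 nM DAC it was 6, 28 and 24 in MV411, then 0, 21 and 24 in THP1, and 3, 27 and 29 in NOMO1. No DMSO group had a member at 1 FPKM on any day.

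**Figure D5:**
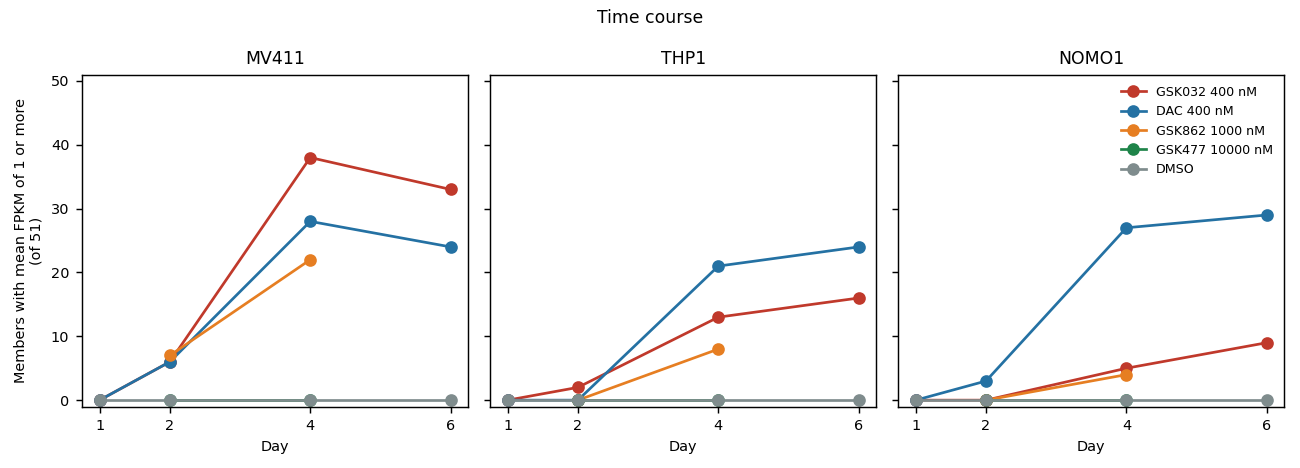
Number of members, of 51, at a mean of 1 FPKM or more by day in each line for GSK032 and DAC at 400 nM, GSK862 at 1000 nM, GSK477 at 10000 nM and DMSO. GSK477 and DMSO stay at 0 on every day, their lines lying on each other, and the other compounds rise from day 2 to day 4.

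From day 1 to day 4, 400 nM GSK032 raised 44 members in MV411 (13.5% of all genes called higher), 20 in THP1 (6.72%) and 9 in NOMO1 (2.87%). DAC raised 36 (7.41%), 30 (5.39%) and 31 (12.3%). The choice of members by low DMSO and high day 4 levels of GSK032 favours the rises with GSK032. No member was called lower on day 4, while 7.82%, 1.3% and 0.433% of all genes were called lower with GSK032 and 4%, 2.01% and 4.73% with DAC. On day 1 the highest member mean in MV411, THP1 and NOMO1 was 0.489, 0.750 and 0.351 FPKM with GSK032 and 0.344, 0.384 and 0.712 FPKM with DAC. A fall of 1 was thus out of reach for most members, and nothing is read from its absence. The same test of day 4 against day 1 in DMSO called 1 member higher in MV411 (3.78%), 2 in THP1 (2.38%) and 0 in NOMO1 (0.222%; 1 higher at an unadjusted p below 0.05). These were LINC01906 in MV411 (1.02) and LINC01906 (1.1) and SNHG27 (1.18) in THP1, and leaving out 1 library lost the calls of LINC01906 in MV411 (0.91) and SNHG27 (0.85). Both groups of that test were among the libraries that chose the members, which keeps every member low there, so these DMSO counts are a description. The part of the day 4 offset in the other changes was not tested. Among the 6 members at 1 FPKM in MV411 on day 2 of GSK032, CTB-178M22.2 was at 2.40 and 2.99 FPKM after 0.0999 and 0.148 FPKM on day 1, and ST8SIA6-AS1 at 3.67 and 2.86 after 0.0195 and 0.0424 FPKM.

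Between days 4 and 6 some members went on rising and others fell. With GSK032, 7 were called higher in MV411 (2.06%), 3 in THP1 (0.642%) and 1 in NOMO1 (0.361%), the last being AL160408.3 (9.51 and 10.1 FPKM on day 4 and 24.0 and 23.0 FPKM on day 6; log2 fold change 1.22, standard error 0.10, adjusted p = 1.72e-08). In MV411, LINC01287 (1.52), DSCR8 (1.18) and CTB-178M22.2 (1.17) led, but with libraries scaled to equal sums no member was called higher, and the median of all genes moved from 0.07 to -0.42. In THP1 the risers were CTB-178M22.2 (1.3; 0.91 without 1 library), AC122685.1 (1.18; 0.99 without 1 library) and LINC01819 (1.14).

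Members called lower from day 4 to day 6 of GSK032 numbered 5 in MV411 (6.09% of all genes), 5 in THP1 (6.11%) and 0 in NOMO1 (0.0385%; 1 lower at an unadjusted p below 0.05). LINC02205 fell from 8.27 and 7.41 FPKM on day 4 to 0.187 and 0.615 FPKM on day 6 in MV411 (log2 fold change -3.25, standard error 0.42, adjusted p = 2.19e-06) and from 16.6 and 15.9 to 1.13 and 2.01 FPKM in THP1 (log2 fold change -3.05, standard error 0.44, adjusted p = 3.94e-06). AC012629.2 (-1.95 in MV411, where leaving out 1 library lost the call at -1.47, and -2.49 in THP1) and LINC01906 (-1.44 and -1.42) had the next largest falls in both lines. For LINC02205, picked by its large fall, the libraries of day 4 all lay above those of day 6. In DMSO, LINC02205 in THP1 was at 0.961 and 0.310 FPKM on day 4 and 0 and 0.163 FPKM on day 6, so the offset of day 4 was also present without a drug, and its part in these falls was not tested. With DAC 1 member rose from day 4 to day 6 in MV411 (0.459%), AC108865.2 (1.09), and none in THP1 (0.224%; 4 higher at an unadjusted p below 0.05) or NOMO1 (0.983%; 12 higher). With DAC, 3 members fell in MV411 (2.45%), led by LINC02205 (-1.91), 1 in THP1 (0.883%), SNHG27 (-1.08; -0.80 without 1 library), and 0 in NOMO1 (0.573%; 2 lower at an unadjusted p below 0.05).

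GSK862, at its single dose of 1000 nM, raised a part of the members. On day 4, 22 members were at 1 FPKM or more in MV411, 8 in THP1 and 4 in NOMO1, and on day 2 the numbers were 7, 0 and 0. Against DMSO of the same day 29 members were called higher in MV411 (4.2% of all genes), 12 in THP1 (1.17%) and 8 in NOMO1 (2.41%). None was lower, also at an unadjusted p below 0.05, while 1.17%, 0.142% and 0.467% of all genes were called lower. The low DMSO level that chose the members is part of this comparison, so the counts are partly set by the choice and nothing is read from them. From day 2 to day 4, which uses no DMSO library and was added after seeing the data, 24 members rose in MV411 (5.18%), 9 in THP1 (5.52%) and 4 in NOMO1 (1.82%), with the THP1 count at 24 with a pseudocount of 0.1, 3 with a pseudocount of 1 and 18 after scaling to equal sums.

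The levels in DMSO are given here as a description. AL160408.3 in NOMO1 was at 0.333 and 0.121 FPKM in DMSO and 8.98 and 9.68 FPKM with GSK862 on day 4, after 0.907 and 0.875 FPKM on day 2 (day 4 against day 2: log2 fold change 2.82, standard error 0.10, adjusted p = 7.56e-18). CTB-178M22.2 in MV411 was at 0 FPKM in both DMSO libraries and at 8.90 and 7.13 FPKM with GSK862 on day 4, after 2.70 and 2.43 FPKM on day 2 (log2 fold change 1.47, standard error 0.21, adjusted p = 5.42e-06). LINC02205 in THP1 was at 0.961 and 0.310 FPKM in DMSO and 11.4 and 8.74 FPKM with GSK862 on day 4, after 0 and 0.477 FPKM on day 2 (log2 fold change 3.91, standard error 0.44, adjusted p = 2.49e-07). In these 3 cases, picked by their large changes, both libraries of day 4 lay above both of day 2. Side by side, at doses that differ, the members summed to 79.6 and 80.8 FPKM in the libraries of 1000 nM GSK862 on day 4 in MV411, to 148 and 151 FPKM with 400 nM GSK032 and to 241 and 249 FPKM with 2000 nM GSK032.

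The DMSO libraries that GSK477 is compared with helped to choose the members, so the counts and intervals that follow are a description. With GSK477 at 10000 nM no member was at 1 FPKM on day 2 or 4 in any line, and limma called none of the 48, 43 and 34 tested against DMSO of day 4 (0.0318%, 0.00861% and 0.173% of all genes called higher, 0.445%, 0.0301% and 0.0385% lower). At an unadjusted p below 0.05, 1 was higher and 2 were lower in MV411, 0 in THP1, and 1 was higher in NOMO1. The 95% interval of the log2 fold change lay within 1 of 0 for 44 of 48 members in MV411, 42 of 43 in THP1 and 32 of 34 in NOMO1. LINC01906 in MV411 (-0.76, interval -1.28 to -0.24) and AC108865.2 in NOMO1 (0.78, interval 0.31 to 1.26) had the lowest adjusted p of their lines. In THP1 the members summed to 8.80 and 9.32 FPKM with GSK477 on day 4 and to 9.06 and 9.18 FPKM in DMSO of that day.

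Some members lie beside each other or beside a protein-coding gene on the other strand. GS1-600G8.3 and LINC01203 lie 14.8 kb apart on X, AC005291.2 and AC005291.1 lie 2.5 kb apart on chromosome 17, LINC01820 and LINC02583 lie 35 kb apart on chromosome 2, and LINC02163 and AC099520.1 lie 277.9 kb apart on chromosome 5. GS1-600G8.3 was at 8.61 and 10.8 FPKM with 10000 nM GSK032 in MV411, where LINC01203 was at 11.6 and 12.4 FPKM. With 400 nM DAC in THP1 the first was at 1.44 and 1.63 FPKM and the second at 1.77 and 1.55 FPKM.

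MAGEA4-AS1 overlaps MAGEA4, a cancer-testis antigen gene on X whose start lies 1459 bases away. MAGEA4 went from 0.975 and 0.807 FPKM at 3.2 nM to 56.6 and 57.8 FPKM at 400 nM GSK032 in THP1 (log2 fold change 5.38, standard error 0.23, adjusted p = 4.89e-16), while MAGEA4-AS1 went from 0.107 and 0.0222 to 1.15 and 1.3 FPKM (log2 fold change 1.61, standard error 0.13, adjusted p = 2.62e-10). In MV411 MAGEA4 rose by 6.83 and in NOMO1 by 4.88 on the log2 scale. From 400 to 10000 nM DAC both fell in THP1, with log2 fold changes of -1.60 for MAGEA4 and -1.23 for MAGEA4-AS1. Whether the quantification used the strand of the reads is not given in the sources used here, so reads of such an overlapping pair may not be told apart.

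VWA1, a matrix protein gene that starts 288 bases from LINC01770, was called higher with 400 against 3.2 nM GSK032 in MV411 (1.73), THP1 (1.56) and NOMO1 (1.58). LINC01770 was called there in MV411, at 0.455 and 0.449 FPKM with 3.2 nM and 1.63 and 1.24 FPKM with 400 nM (log2 fold change 1.01, standard error 0.29, adjusted p = 0.00709; 0.87 without 1 library). BOK, the BCL2-family gene that BOK-AS1 overlaps, was called higher with DAC in THP1 (1.66) and NOMO1 (2.06) while with 400 nM GSK032 it was not called in THP1 or NOMO1 and was too low to be tested in MV411. BOK-AS1 rose with 400 nM GSK032 in MV411 from 0.353 and 0.201 to 4.84 and 3.41 FPKM (log2 fold change 2.56, standard error 0.21, adjusted p = 1.1e-10). Of the 22 pairs of a member and such a partner, the test covered 11 partners in MV411, 11 in THP1 and 12 in NOMO1, and in each line 2 of them, MAGEA4 and VWA1, were called higher between 3.2 and 400 nM GSK032. KCNJ6, whose start lies 106 bases from that of DSCR8, stayed untested because of its low level, with 0.0422 and 0.0718 FPKM at 400 nM GSK032 in MV411 where DSCR8 was at 4.88 and 5.76 FPKM.

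Of 21 genes of the DNA methylation machinery, the test covered 21 in NOMO1 and 20 in each of the other lines. Between 3.2 and 400 nM GSK032, 2 were called higher and 2 lower in MV411 (6.26% and 2.64% of all genes), none in THP1 (1.92% and 0.349%; 0 higher and 8 lower at an unadjusted p below 0.05), and 1 higher and 0 lower in NOMO1 (2.41% and 0.433%; 3 lower at an unadjusted p below 0.05). DNMT3L, a cofactor of the de novo methyltransferases, rose in MV411 (1.57) and NOMO1 (1.33), and CDCA7, which works with HELLS in DNA methylation, fell in MV411 (-1.51). For DNMT1 itself the log2 fold change was -0.36 in MV411, -0.21 in THP1 and 0.00 in NOMO1, none of them called, and UHRF1, its partner at newly made DNA, -0.94, -0.35 and 0.06. DNMT3A (-0.45) and DNMT3B (-0.45) were not called in MV411. With DAC, UHRF1 was called lower in MV411 (-1.53) and NOMO1, where its change lay at the fold threshold. Of 11 genes of repeat silencing through KRAB zinc fingers, 1 of 10 tested fell with 400 nM GSK032 in MV411, the histone methyltransferase gene SUV39H1 (-1.69), and none was called in THP1 (0 higher and 3 lower at an unadjusted p below 0.05) or NOMO1 (1 higher and 3 lower). From day 1 to day 4 of 400 nM GSK032, 4 methylation genes were called higher and 5 lower in MV411 (13.5% and 7.82% of all genes), among them DNMT3L (1.17) and UHRF1 (-1.58). In THP1, 0 were called higher and 2 lower (6.72% and 1.3%), and in NOMO1 none was called (2.87% and 0.433%; 4 higher and 5 lower at an unadjusted p below 0.05). Over those days the repeat silencing genes had 1 called higher and 2 lower in MV411, SUV39H1 being one of the latter (-2.13), and none in THP1 (1 higher and 7 lower at an unadjusted p below 0.05) or NOMO1 (0 and 5).

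Of 27 long noncoding RNAs that blood cells normally express, the test covered 23 in MV411, 23 in THP1 and 24 in NOMO1, and limma called none in either direction between 3.2 and 400 nM GSK032. At an unadjusted p below 0.05, MV411 had 3 higher and 5 lower, THP1 1 higher and 14 lower, and NOMO1 0 higher and 9 lower. From day 1 to day 4 of 400 nM GSK032, 3 were called higher and 5 lower in MV411 (13.5% and 7.82% of all genes), 2 higher and 5 lower in THP1 (6.72% and 1.3%), and none in NOMO1 (2.87% and 0.433%; 1 higher and 10 lower at an unadjusted p below 0.05). MALAT1, an abundant nuclear RNA, rose over those days in MV411 (2.18) and THP1 (1.27), and SNHG6 fell in THP1 (-1.39). With 400 against 3.2 nM DAC, 3 were called higher in MV411 (7.5% of all genes), 1 in THP1 (6.39%) and 3 in NOMO1 (13%), among them MIR22HG, the host gene of a microRNA (1.04, 1.62 and 2.03), and 1 (3.36%), 0 (2.77%) and 7 (6.51%) were called lower, among them the small nucleolar RNA host gene SNHG1 in NOMO1 (-1.02). Their median log2 fold change with 400 against 3.2 nM GSK032 was -0.07 in MV411, -0.32 in THP1 and -0.19 in NOMO1. All genes tested had a median of 0 in each line.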

How the data were processed

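RNA-seq of 156 libraries, 52 per cell line, was analysed from the gene tables of FPKM values that the authors deposited, 1 table per line. Per the submitters' processing notes, Salmon 0.12.0, DESeq2 and the build hg38 were used. How the FPKM values were made, and whether strand was used, is not given in the sources used here, so levels of antisense RNAs that overlap another gene are uncertain. Low values did not give whole reads, so the depth is unknown and no counting error is given. Gene types came from GENCODE 29, which held 56511 of 59939 genes (94.3%).

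The members and gene lists were chosen with earlier results of these data known. Separate fits per line were made on log2(FPKM + 0.5) by limma 3.58.1 (R 4.3.3), with all 26 groups sharing 1 estimate of the spread, for genes at 1 FPKM or more in at least 2 libraries (22007 genes in MV411, 23226 in THP1, 20763 in NOMO1). Benjamini-Hochberg adjustment covered all genes tested, and a call needed an adjusted p below 0.05 and a log2 fold change of at least 1. Whether the 2 libraries of a group stem from different cultures is not in the labels, and p-values therefore reflect only how much libraries vary. In MV411, 4 libraries of GSK862 and GSK477 on day 4 carry no replicate number.

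Genes named in the text are the members with the highest level over lines, up to 3 with the largest called change per comparison and direction, up to 2 uncalled with the lowest adjusted p, those next to a threshold, those with a coding partner or a known role, and called genes of the lists. Other genes named were chosen after their values were seen, as were members used to show a sequence or a change of side between compounds. Related sequences were found with blastn 2.17.0. Some start sequences are not reported here. Tested on simulated data for 400 against 3.2 nM GSK032, the fit recovered 84%, 82% and 85% of 100 genes changed by 1.5 (log2) in MV411, THP1 and NOMO1, and 93%, 90% and 89% of those changed by 2.5. False calls numbered 2, 12 and 4. The changed genes, raised or lowered, were drawn from those above 1 FPKM at 3.2 nM. No member had a mean of 1 FPKM there, so these shares do not carry over to the members. Alternatives tried were a pseudocount of 0.1 or 1, a lower or no filter, libraries rescaled to equal sums, a replicate block, leaving out each library, and other thresholds for the members.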

Additional observations from a re-analysis of the deposited data

Results flagged for a closer look

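For 3 members, GSK032 was called higher than DAC at 400 nM on day 4 in one line and lower in another. AC122685.1 had a log2 fold change of 1.21 in MV411 (13.2 and 11.7 FPKM with GSK032, 4.78 and 5.43 FPKM with DAC) and -1.07 in THP1 (0.551 and 0.312 FPKM with GSK032, 1.83 and 1.12 FPKM with DAC), the latter -0.81 without 1 library. LINC02205 had 1.43 in THP1 (16.6 and 15.9 FPKM with GSK032, 5.06 and 6.42 FPKM with DAC) and -1.12 in NOMO1 (0.524 and 0.472 FPKM with GSK032, 1.36 and 2.02 FPKM with DAC). Leaving out 1 library lost both of these calls, at 1.28 in THP1 and -0.90 in NOMO1 for LINC02205. AC012629.2 had 1.36 in THP1 (4.15 and 2.17 FPKM with GSK032, 0.699 and 1.08 FPKM with DAC) and -1.02 in NOMO1 (0.169 and 0.290 FPKM with GSK032, 0.850 and 1.12 FPKM with DAC), and these were 0.96 and -0.89 without 1 library. The difference between lines was not tested, since each line was fitted separately.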

How the results depend on the processing

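Other thresholds gave 25 members with a DMSO limit of 0.1 FPKM, 97 with 0.5, 199 from 0.5 FPKM of GSK032, 26 from 2 FPKM and 18 if all 3 lines were required, in place of 51. No call of a member changed sign. Of 582 calls, 562 remained with a pseudocount of 0.1, 366 with 1, 580 with a lower filter and 579 with none, and 554 of 581 after rescaling to equal sums. The pseudocount sets how large a change from near 0 to 1 FPKM appears, so counts of low members depend on it. In each group the difference between replicates 1 and 2 was taken gene by gene, and these differences were correlated between groups. The correlation was above 0.1 in 101 of 276 pairs of groups in MV411, 93 of 325 in THP1 and 112 of 325 in NOMO1. Its median was 0.080, 0.081 and 0.088 and its highest value 0.417, 0.220 and 0.233. The numbers were not taken as pairs. With the replicate number as a block, 529 of 529 calls remained, for example 39 members between 3.2 and 400 nM GSK032 in MV411. The block was not run for GSK862 or GSK477 in MV411 on day 4, where libraries carry no number. Without 1 library at a time, 2175 of 2326 calls remained.

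The cause of the following changes was not tested beyond the setting itself. With a pseudocount of 1 in MV411, 10 members were lower with 10000 against 400 nM DAC, 1 was higher with GSK032 than DAC at 400 nM, 0 rose from day 4 to day 6 with DAC, 2 from 400 to 2000 nM GSK032, 15 from day 2 to day 4 with GSK862 and 0 from day 1 to day 4 in DMSO. In THP1 it gave 16 higher with DAC by dose, 1 lower at 10000 nM DAC, 2 lower with GSK032 than DAC at 400 nM and 0 at 2000 nM, 10 and 16 higher from day 1 to day 4 with GSK032 and DAC, 0 from day 4 to day 6 with GSK032, 5 with GSK862 against DMSO, 3 from day 2 to day 4 with GSK862, 6 from 400 to 2000 nM GSK032 and 0 in DMSO. In NOMO1 it gave 5 higher with GSK032 by dose, 0 higher and 4 lower at 10000 nM DAC, 0 higher with GSK032 than DAC at 400 nM and 3 at 2000 nM, 4 from day 1 to day 4 with GSK032, 4 with GSK862 against DMSO and 8 from 400 to 2000 nM GSK032.

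With a pseudocount of 0.1, MV411 gave 4 members higher with GSK032 than DAC at 400 nM, 2 from day 4 to day 6 with DAC and 2 in DMSO. THP1 gave 30 with GSK032 by dose, 12 lower at 10000 nM DAC, 1 higher with GSK032 than DAC at 400 nM, 36 from day 1 to day 4 and 8 from day 4 to day 6 with GSK032, 1 from day 4 to day 6 with DAC, 24 from day 2 to day 4 with GSK862 and 4 in DMSO. NOMO1 gave 17 with GSK032 by dose, 0 higher at 10000 nM DAC, 18 from day 1 to day 4 and 3 from day 4 to day 6 with GSK032, 1 from day 4 to day 6 with DAC, 20 with GSK862 against DMSO and 13 from day 2 to day 4 with GSK862. After rescaling, MV411 gave 14 higher with GSK032 than DAC at 400 nM and 0 from day 4 to day 6 with GSK032 and with DAC, THP1 gave 3 lower at 10000 nM DAC, 4 lower with GSK032 than DAC at 400 nM and 18 from day 2 to day 4 with GSK862, and NOMO1 gave 1 from day 4 to day 6 with DAC.

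Without 1 library at a time, where the lone library is assumed to vary like the other groups, members higher at 10000 against 400 nM DAC numbered 0 to 1 in NOMO1 and in THP1, and lower 6 to 8 in THP1. From day 4 to day 6 with DAC, 1 to 2 rose in MV411, 0 to 1 in NOMO1 and 0 to 1 in THP1, and with GSK032 1 to 2 rose in NOMO1. In DMSO 0 to 1 rose in MV411 and 1 to 3 in THP1. From 400 to 2000 nM GSK032, 6 to 11 rose in THP1. GSK032 was lower than DAC at 2000 nM for 0 to 1 in MV411 and 0 to 2 in THP1, and higher at 400 nM for 3 to 6 in MV411 and 1 to 3 in THP1. From day 2 to day 4 with GSK862, 9 to 14 rose in THP1.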
